A study of Mus musculus with 12 samples.

Results

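The 200 Gm-numbered genes with the highest mean raw count in mouse oocytes were described, out of 23768 genes whose symbol is Gm followed by digits only and 56691 genes counted. A symbol could be given to 52073 of the counted genes (91.85%), and 9595 of the Gm-numbered genes had at least 1 count. Members were chosen on their mean count over 12 libraries, so their abundance is a description. A gene could also enter the list through a high level at a single stage.

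A Gm symbol is a provisional name that the mouse nomenclature gives to a predicted gene until a function or a relative is assigned. Such genes are long non-coding RNAs (transcribed RNAs without a known protein), pseudogenes (copies of genes, among them processed copies that arose from reverse-transcribed mRNA), and protein-coding genes that have not been renamed. Growing oocytes store large amounts of maternal RNA. They rest at the germinal vesicle (GV) stage, resume meiosis with germinal vesicle breakdown (GVBD), and reach metaphase II (MII), while transcription is silent and many stored RNAs are deadenylated and removed. ALKBH5 is a demethylase that removes N6-methyladenosine (m6A) from RNA.

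The series held poly(A) RNA-seq of oocytes from wild-type (WT) mice and from Alkbh5-/- mice (KO) at GV, GVBD and MII, with 2 libraries in each of 6 groups. The KO was a total knockout made by CRISPR removal of exon 1, so every cell of the animal lacked the gene, and the mice were C57BL/6 females primed with PMSG. The age is given as 3 weeks in the sequencing methods and as 4 to 6 weeks elsewhere. GV oocytes were collected from the ovary. The later samples were taken after set hours in culture, so GVBD and MII are in vitro time points. The study reports that most KO oocytes stayed at GV in culture and that few extruded a polar body. It does not say whether the sequenced pools were picked by stage. KO libraries named GVBD or MII may thus hold earlier stages than the WT libraries. ERCC spike-in RNA was added to each pool of oocytes. The study describes the 2 libraries of a group as biologically independent samples, without saying whether they came from separate animals, and the p-values measure the spread between these libraries.

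Libraries held 28335815 to 39409401 endogenous counts and 221927 to 838409 ERCC counts, and each ERCC count stood beside 47.0 (WT MII 2) to 127.68 (KO GV 1) endogenous counts. Alkbh5 had 5355 to 10181 counts in WT and 54 to 143 in KO libraries. All 14 oocyte markers were detected, with a summed level of 25059.67 to 41622.18 counts per 1000000 endogenous counts (CPM). The 13 granulosa cell markers summed to 39.65 to 85.8 CPM, of which Cyp19a1 gave 20.36 to 72.15 and Nr5a2 7.41 to 13.97, while Amhr2 was at 0 and Amh at most 0.12. Blood markers, 8 in all, summed to 3104.55 and 5347.7 CPM in KO GV, to 26.42 and 5556.15 in WT GV, to 3239.2 and 2945.08 in WT GVBD, and to 15.3 and 49.25 in WT MII. KO GVBD had 9.55 and 15.84, and KO MII had 922.86 and 4.7. The 5 heart muscle markers summed to 161.17 and 74.5 CPM in WT MII and to 1.21 and 0.52 in KO MII, and elsewhere to 3.44 to 164.04. Of the 3 skin markers, Krt5 and Krt14 were at 0 except in WT GVBD, while Krt10 was at 4.27 to 25.07 CPM, with its highest values in WT MII. The part of these transcripts in any result was not tested.

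By GENCODE annotation the 200 members were 95 lincRNAs, 40 pseudogenes, 27 protein-coding genes, 19 antisense RNAs and 19 of other types, of which 11 were processed transcripts. Single-exon genes made up 45 of the 200, and 8 lay on the X chromosome. Exons of 27 members overlapped exons of another gene, on the opposite strand for 22. The sources used here do not say whether reads were counted by strand, so reads of such overlapping pairs cannot be told apart. RefSeq (GRCm38.p6) listed 104 members under the same symbol and 11 under another name, such as Ftdc1 for Gm813 and Pramel27 for Gm13103. Of the 27 members coding in GENCODE, RefSeq called 13 protein coding, 7 pseudogenes, 4 long non-coding RNAs and 2 transcribed pseudogenes.

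A near copy elsewhere in the transcriptome, with at least 80% identity over at least 50% of the member, was found for 77 members by BLASTN, and for 69 of them the copy was a protein-coding gene. For 29 members another member was a near copy. The following stretches of 60 bases show how little separates some members from these coding genes, which bears on every count given for them. They are taken from the coding part, capitals mark the bases that differ, and coordinates are on GRCm38.

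Gm15500, a pseudogene that differed between the genotypes at MII, is a copy of Rpl5 (a protein of the large ribosomal subunit), and had 0 mismatches in 1018 aligned bases. The stretch lies at chr7:114706104-114706163 on the minus strand and covers coding positions 1 to 60 of Rpl5.
Gm15500: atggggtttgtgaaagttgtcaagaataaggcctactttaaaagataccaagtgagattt
Rpl5: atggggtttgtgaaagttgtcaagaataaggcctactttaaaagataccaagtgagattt

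Gm28661 on chromosome 1 is a nuclear copy of mt-Co2, a subunit of cytochrome c oxidase encoded by the mitochondrial genome. It was identical over 681 bases, and the stretch lies at chr1:24615506-24615565 on the minus strand.
Gm28661: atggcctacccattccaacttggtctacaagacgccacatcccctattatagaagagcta
mt-Co2: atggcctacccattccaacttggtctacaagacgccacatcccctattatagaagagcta

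Gm5776 is a copy of Mrps33, a protein of the mitochondrial ribosome, and differed at 1 of 321 bases. The stretch lies at chr7:54412279-54412338 on the minus strand.
Gm5776: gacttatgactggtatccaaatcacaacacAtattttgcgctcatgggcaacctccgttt
Mrps33: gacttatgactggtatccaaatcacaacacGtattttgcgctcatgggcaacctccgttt

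Gm11221 is a copy of Fcf1, a factor of small ribosomal subunit assembly, and differed at 12 of 597 bases. The stretch lies at chr4:69692294-69692353 on the plus strand.
Gm11221: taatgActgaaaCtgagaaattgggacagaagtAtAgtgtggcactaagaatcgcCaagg
Fcf1: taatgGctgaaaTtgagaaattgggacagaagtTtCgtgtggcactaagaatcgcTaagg

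Gm8797 is a copy of Ubb, which encodes polyubiquitin, and differed at 6 of 384 aligned bases. GENCODE calls it protein coding and RefSeq a pseudogene. The stretch lies at chr3:5750932-5750991 on the plus strand.
Gm8797: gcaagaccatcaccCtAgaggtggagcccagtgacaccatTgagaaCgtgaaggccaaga
Ubb: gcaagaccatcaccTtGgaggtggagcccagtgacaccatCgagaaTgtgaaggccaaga

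Across the 12 libraries the members' mean raw counts ran from 2055.3 to 233788.8, with a median of 5119.6, and no member had 0 counts in any library. The lowest single value was 162 counts, for Gm11221 in KO MII 2. Gm813 alone took 10.58% of all counts in members, and the 10 most counted members took 37.61%. Gm813 (ENSMUSG00000075002, chr16:58613675-58616978, minus strand, 4 exons) is the coding gene that RefSeq names Ftdc1, for a ferritin domain. It was followed by the lincRNA Gm16497 with a mean of 130648.8 counts, the lincRNA Gm3143 with 109382.1, the ubiquitin pseudogene Gm1821 with 84889.2 and the Hsp90aa1 pseudogene Gm5844 with 71597.0. The next were Gm13103 (56794.6 counts), a Pramel gene, the antisense RNA Gm42817 (44092.4), the lincRNA Gm36159 (39894.7), the antisense RNA Gm47272 (31725.3) and the pseudogene Gm5776 (28724.1).

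In CPM per kilobase of merged exons (an RPKM-like level), the members ran from 6.39 to 9922.06, with a median of 173.39. Gm813 was again the highest, at 9922.06. Gm3143 had an RPKM-like level of 3419.21, Gm5776 of 2702.73, Gm1821 of 2645.22 and Gm42817 of 2213.79. Short transcripts moved up on this scale, since Gm5776 spans 321 bases and Gm42817 607. The long lincRNA Gm39465, with 9813 bases of exons, was the lowest, at 6.39.

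The members took a smaller share of the RNA at MII than at GV. They held 7.86% and 8.10% of endogenous counts in the WT GV libraries, then 8.48% and 8.15% after GVBD and 3.99% and 4.07% by MII. The KO shares were 7.54% and 7.70% for the GV, 6.99% and 7.13% for the GVBD and 5.21% and 4.26% for the MII libraries. The MII libraries of both genotypes lay below all GV and GVBD libraries. The WT mean fell from 7.98% ± 0.171 (SD, n = 2) at GV to 4.03% ± 0.0540 at MII, which is 50.5% of the GV share with a propagated error of 1.28. The KO mean was 7.62% ± 0.112 at GV and 4.74% ± 0.666 at MII, which is 62.1% with an error of 8.79. Much of the fall lay in the 10 most counted members. Without them the mean share went from 4.63% to 3.12% in WT and from 4.50% to 3.36% in KO. An exact permutation test of 2 against 2 libraries cannot give a two-sided p below 0.333, so the shares were not tested.

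**Figure D1:**
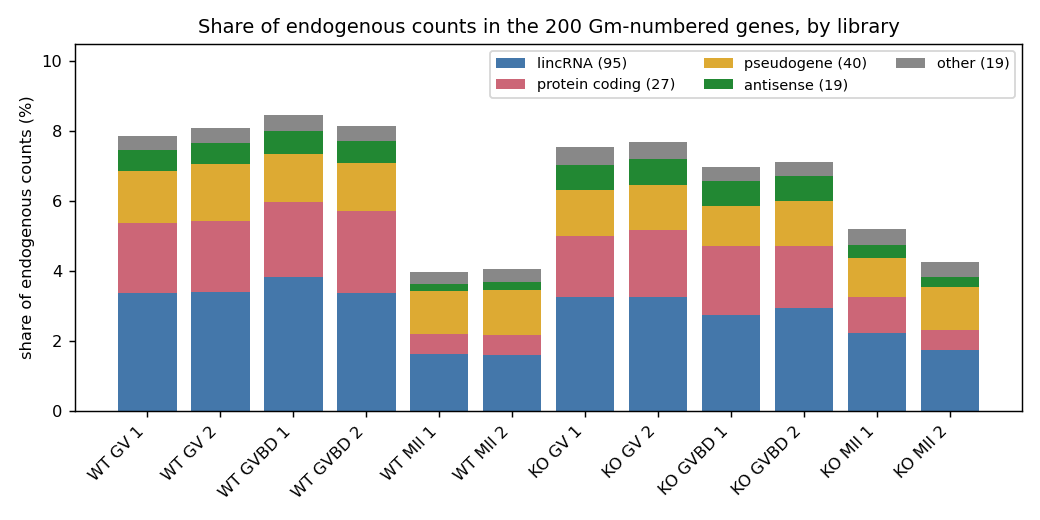
Share of endogenous counts (%) taken by the 200 Gm-numbered genes in each of 12 libraries, stacked by annotated gene type with the number of genes in brackets. The WT MII bars stand at 3.99% and 4.07% against 7.86% and 8.10% at WT GV, and the KO MII bars at 5.21% and 4.26%.

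The fall of the share was unequal between gene types, as the plot of shares by library shows. From WT GV to WT MII the mean share of the lincRNAs went from 3.38% to 1.61%, that of the coding members from 2.04% to 0.583% and that of the antisense RNAs from 0.619% to 0.218%. The pseudogenes went from 1.54% to 1.26% and the other types from 0.406% to 0.359%. In KO MII the lincRNAs held 1.98%, the coding members 0.813%, the antisense RNAs 0.343%, the pseudogenes 1.17% and the other types 0.431%.

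To compare levels per oocyte pool, counts were scaled to equal ERCC sums and tested by edgeR's quasi-likelihood test over all tested genes. A gene was called when its Benjamini-Hochberg adjusted p was below 0.05 and its log2 fold change at least 1 in size. In WT, 109 of the 200 members were lower at MII than at GV and 0 were higher, where 31.4% of the 18511 tested genes were called lower and 0.346% higher. The median log2 fold change was -1.53 for the members and -1.07 for all tested genes. Among 2266 other genes with at least the mean count of the lowest member, 745 (32.9%) were called lower, with a median of -0.43. The members' count fell when either WT GV library was left out, and so did the number called over all tested genes. In these bulk pools fewer oocytes and less RNA per oocyte cannot be told apart, nor can shorter poly(A) tails and fewer molecules, since the cDNA was primed with oligo-dT.

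The antisense RNAs and coding members stood lowest among the types. Of 19 antisense members 13 were called lower (median -2.30), of 27 coding members 21 (median -1.95) and of 95 lincRNAs 51 (median -1.52). Of 40 pseudogenes 17 were called lower (median -0.58), and of the 19 other members 7 (median -0.70). Scaling by the endogenous RNA (TMM) moved the median of all tested genes from -1.07 to -0.23, so these values are relative to that shift. Under TMM the members' median was -0.69, with 88 called lower and 16 higher, against 17.6% and 7.12% of all tested genes. The TMM medians turned positive for the pseudogenes (0.27) and the other types (0.17).

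Gm813 showed the pattern in the most counted member. It had 405393 and 381137 ERCC-scaled counts in the WT GV libraries, then 477942 and 341882 after GVBD and 39994 and 24968 by MII. In KO the GV libraries held 437206 and 421747, the GVBD libraries 442334 and 312909, and the MII libraries 167844 and 41258. Every MII library lay below every GV and GVBD library of its genotype, and the KO MII libraries differed from each other the most. The log2 fold change from GV to MII was -3.60 (SE 0.43, adjusted p = 1.06e-14) in WT and -2.04 (SE 0.61, adjusted p = 0.0863) in KO.

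Gm16497 (chr12:14261534-14285725, plus strand, 4 exons) was the most counted lincRNA. It had 251340 and 242904 scaled counts in the WT GV libraries, then 385156 and 145782 after GVBD and 10661 and 8629 by MII. For KO the values were 255024 and 233340 in the GV, 207621 and 175766 in the GVBD and 61271 and 21898 in the MII libraries. The GV libraries of both genotypes were close to each other, and the KO MII libraries lay above the WT MII libraries. It fell by 4.68 on the log2 scale in WT (SE 0.47, adjusted p = 1.85e-20), and the KO difference was -2.55 (adjusted p = 0.0553).

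The lincRNA Gm3143 and the antisense RNA Gm42817 were higher per length than Gm16497 and fell as well in WT. Gm3143 (chr3:34699640-34716662, minus strand, 7 exons) had 154567 and 157232 scaled counts at WT GV and 38661 and 28774 at WT MII, a log2 fold change of -2.21 (SE 0.43, adjusted p = 3.44e-06). Gm42817 (chr5:128336777-128342778, plus strand, 4 exons) had 67791 and 61068 at WT GV and 2456 and 1699 at WT MII, a change of -4.95 (SE 0.51, adjusted p = 2.2e-19). In both, the GV and MII libraries of WT did not overlap. The KO libraries of Gm42817 held 103408 and 96926 at GV but 16152 and 2833 at MII, and the KO difference of -3.40 did not pass the test (adjusted p = 0.0573).

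Gm1821 and Gm47272 show how the KO differed among the most counted members. Gm1821, the Ubb pseudogene on chromosome 14 (chr14:46084028-46085000, plus strand), had 178624 and 161767 scaled counts at KO GV and 29239 and 11305 at KO MII, and its change was -3.55 (SE 0.45) in WT and -3.07 (SE 0.57) in KO. Both passed the test. The antisense RNA Gm47272 had 37930 and 38684 at WT GV and 8778 and 6765 at WT MII, a change of -2.30 (SE 0.46, adjusted p = 8.12e-06). In KO it had 52327 and 50855 at GV and 40831 and 26510 at MII, with a difference of -0.62 (adjusted p = 0.443). The difference between these changes was 1.69 (SE 0.56, adjusted p = 0.633).

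The members with the lowest values in WT were Gm8797, Gm11221, Gm43449 and Gm36241. Gm8797, the Ubb copy, had 31145 and 37718 scaled counts at WT GV and 328 and 361 at MII, a log2 fold change of -6.64 (SE 0.58, adjusted p = 1.79e-27). WT GV 2 alone held 28.06% of its CPM sum over 12 libraries, the highest such share among the members. Gm11221, the Fcf1 copy, had 7553 and 7965 at WT GV and 156 and 112 at MII, a log2 fold change of -5.86. The antisense RNA Gm43449 had a log2 fold change of -5.41. Gm36241, a long non-coding RNA in RefSeq, had 13560 and 15007 at WT GV and 455 and 301 at MII, a log2 fold change of -5.24. All of these stayed called lower under every alternative tried.

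Gm5844 is a single-exon copy of Hsp90aa1, which encodes a stress-inducible chaperone, and it was the only one of the 10 most counted members that was not called lower in WT. It had 69430 and 66458 scaled counts in the WT GV libraries, then 60106 and 67408 after GVBD and 102823 and 68685 by MII. For KO the values were 62079 and 61278 in the GV, 81852 and 43884 in the GVBD and 106864 and 59175 in the MII libraries. The groups overlapped, and neither the WT difference of 0.34 (adjusted p = 0.61) nor the KO difference of 0.43 (adjusted p = 0.602) passed the test. Under TMM it was called higher in WT, by 1.19 (adjusted p = 0.00303).

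Most of the WT difference lay between GVBD and MII. The median log2 ratio of group means from GV to GVBD was 0.01 in WT, with 105 members up and 95 down, and from GVBD to MII it was -1.37, with 170 down. In KO the medians were -0.26 for the step to GVBD, with 153 down, and -0.91 for the step to MII, with 155 down. These steps were not tested.

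In KO, 8 of the 200 members were called lower at MII than at GV and 0 higher, where 1.17% of the 18986 tested genes were called lower. They were the lincRNAs Gm43269 (-4.07, adjusted p = 0.0478), Gm48893 (-4.22, adjusted p = 0.0444) and Gm39465 (-3.55, adjusted p = 0.0478), the pseudogenes Gm11221 (-4.98, adjusted p = 0.0443) and Gm1821 (-3.07, adjusted p = 0.0478), and Gm36241 (-4.88, adjusted p = 0.0436). The other 2, outside the rule for named genes, were the lincRNAs Gm42980 (-3.86) and Gm3924 (-3.69), both with an adjusted p of 0.0478. The median over all 200 members was -1.32, close to the -1.19 of all tested genes, and 96 members had an unadjusted p below 0.05. Under TMM 26 members were called lower and 3 higher, against 3.44% and 1.06% of all tested genes, and the members' median was -0.27 beside -0.17. The KO count rested on single libraries. It fell when either KO GV library was left out and rose when either KO MII library was left out. The number called over all tested genes moved the same way, and each such fit leaves a single library in a group.

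**Figure D2:**
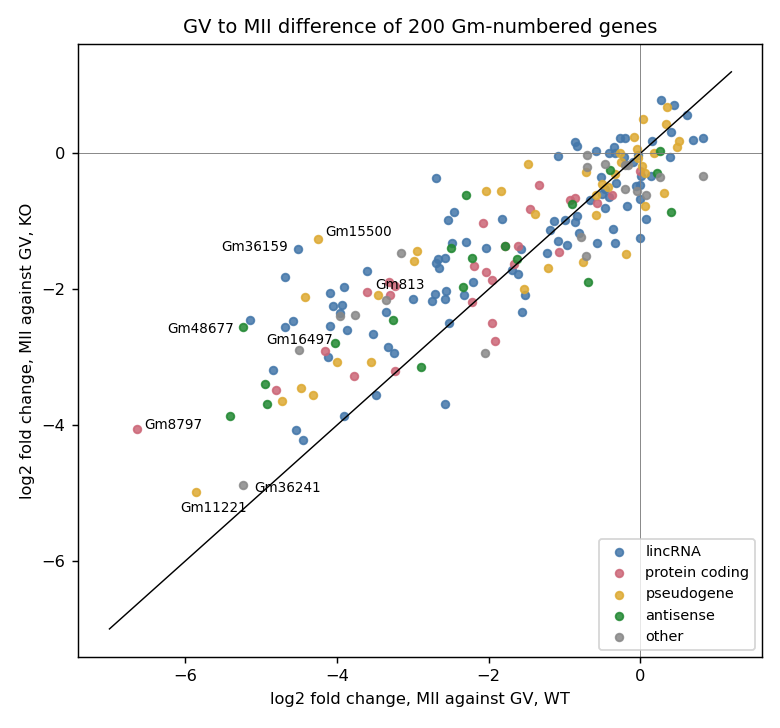
Log2 fold change from GV to MII of the 200 Gm-numbered genes, in WT on the horizontal axis and in KO on the vertical axis, with ERCC-scaled counts and 1 point per gene coloured by gene type. Most points lie below 0 on both axes, with medians of -1.53 in WT and -1.32 in KO.

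Whether the change from GV to MII differed between the genotypes was tested by an interaction term. By edgeR 0 members were called, as were 0.0% of the 21009 tested genes, while 18 members had an unadjusted p below 0.05 beside 5.68% of all tested genes, and DESeq2 called 4 members beside 0.723%. The difference was positive (a smaller fall in KO) for 130 of the 200 members with a median of 0.28, and for 9911 of the 21009 tested genes with a median of -0.07. With TMM scaling 5 members were called higher against 0.29% of all genes. These were Gm36159 (3.09, adjusted p = 0.0274), Gm15500 (2.98, adjusted p = 0.0274), Gm35208 (2.85, adjusted p = 0.0274), Gm9794 (2.24, adjusted p = 0.0447) and Gm28578 (1.87, adjusted p = 0.0375), the last 3 named after their values were seen. Without KO MII 2 the ERCC-scaled count rose, and so did the number called over all tested genes.

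At GV 0 of the 200 members were called between KO and WT by edgeR, where 0.0561% of the 19625 tested genes were called. DESeq2 called 8 members, 7 higher and 1 lower, beside 3.42% of all tested genes, and 57 members had an unadjusted p below 0.05 in edgeR beside 17.8% of all tested genes. The median difference was 0.26 for the members and 0.36 for all tested genes, and under TMM these were -0.07 and 0.02. The edgeR count rose when either WT GV library was left out, and so did the number called over all tested genes. All 8 members on the X chromosome had a positive difference with a median of 0.46, and none of them was called. The difference was also positive for 145 of the 200 members and for 14216 of the 19625 tested genes. At GVBD 3 of these 8 were positive, and at MII 5.

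At GVBD 0 members were called by edgeR, where 2.0% of the 19367 tested genes were called. An unadjusted p below 0.05 was found for 18 members beside 14.5% of all tested genes, and DESeq2 called 7 members, 6 higher and 1 lower, beside 4.65%. The members' median difference of 0.04 compared with 0.23 for all tested genes, and under TMM with -0.24 and -0.03.

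At MII 3 members were higher in KO and 0 were lower, where 0.511% of the 17426 tested genes were called higher and 0.31% lower. The members' median difference was 0.56 and that of all tested genes 0.30, and under TMM these were 0.25 and -0.01. An unadjusted p below 0.05 was found for 32 members beside 7.16% of all tested genes, and DESeq2 called 11 members beside 1.99%.

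Gm36159 (ENSMUSG00000108360, chr7:24448354-24451327, plus strand, 3 exons) is a lincRNA whose exons overlap Irgc1 on the opposite strand. It had 3781 and 2689 ERCC-scaled counts in the WT libraries of MII, and 34210 and 14902 in the KO libraries. The GV values were 75201 and 73714 in WT and 71255 and 59469 in KO, and the GVBD values 114834 and 45148 in WT and 54362 and 46652 in KO. Both KO MII libraries lay above both WT MII libraries, whereas at GV both lay below. The log2 difference at MII was 2.92 (SE 0.74, adjusted p = 0.0149).

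Gm15500, the Rpl5 copy whose start was shown above, had 2619 and 2019 scaled counts in the WT libraries of MII, and 28485 and 13676 in the KO libraries. The GV values were 45050 and 43362 in WT and 54210 and 46902 in KO, and the GVBD values 46932 and 41209 in WT and 54502 and 34638 in KO. The genotypes separated at MII, with a log2 difference of 3.18 (SE 0.76, adjusted p = 0.00713), and overlapped at GVBD. Rpl5 itself had a difference of 2.89 at MII (SE 0.74, adjusted p = 0.0179). Counts of Gm15500 were 71.59% to 99.43% of those of Rpl5 in the 12 libraries, so reads of the pseudogene and its identical coding gene cannot be told apart here.

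Gm48677 (ENSMUSG00000110824) is an antisense RNA of 3 exons within Gnb5, a G protein subunit gene, at chr9:75317072-75342842 on the minus strand. It had 656 and 376 scaled counts in the WT libraries of MII, and 8887 and 1337 in the KO libraries. At GV it had 19112 and 19809 in WT and 30774 and 29031 in KO. The KO MII libraries were above WT MII but 1 of them was several times the other, and the difference was 3.31 (SE 0.86, adjusted p = 0.0212). Under TMM it was 2.78 with an adjusted p of 0.0979.

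The MII calls rested on few libraries, and a genotype effect cannot be told apart here from a difference in meiotic stage. All 3 were kept without KO MII 2, where the number called over all tested genes also rose. None of the 3 was called without WT MII 1, without WT MII 2 or without KO MII 1. Gm36159 and Gm15500 were also called under TMM, at 2.57 and 2.84 (adjusted p = 0.0399 for both). The blood markers summed to 922.86 CPM in KO MII 1 and to 4.7 in KO MII 2, the heart muscle markers were at 161.17 and 74.5 in WT MII against 1.21 and 0.52 in KO MII, and the part of both in these calls was not tested.

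Over all stages together 1 member, Gm48050, was called higher in KO and 0 lower, where 0.88% of the 22046 tested genes were called higher and 0.363% lower. Gm48050 (ENSMUSG00000114521, chr13:98608411-98617662, minus strand) has 3 exons and is annotated in none of the 4 large types. It had 14940 and 10077 scaled counts in the WT GV libraries, then 14241 and 8196 after GVBD and 1090 and 752 by MII. In KO the GV libraries held 34836 and 32034, the GVBD libraries 25699 and 24195, and the MII libraries 10006 and 2819. Each KO library lay above both WT libraries of its stage. The mean difference was 1.78 (SE 0.36, adjusted p = 0.0339), and the single stages gave 1.42 (GV, adjusted p = 0.114), 1.15 (GVBD, adjusted p = 0.293) and 2.80 (MII, adjusted p = 0.0737). For this comparison 54 members had an unadjusted p below 0.05 beside 18.8% of all tested genes, and DESeq2 called 15, 14 of them higher, beside 6.16%. The edgeR count rose without KO MII 2, and so did the number called over all tested genes. It was unchanged without WT GV 1, WT GVBD 1, KO GVBD 2 or KO MII 1. Gm48050 was no longer called when 1 of the other 7 libraries was left out.

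**Figure D3:**
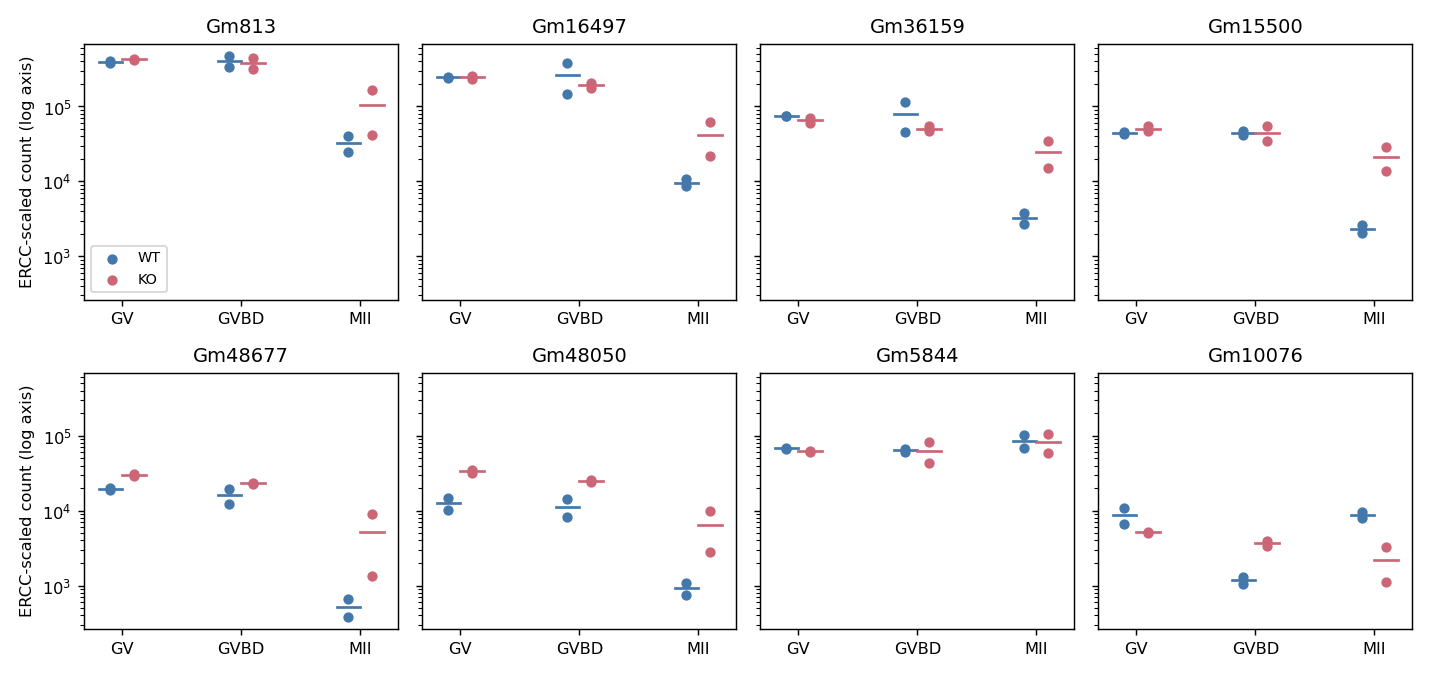
ERCC-scaled counts (log axis) of 8 members at GV, GVBD and MII, with 1 point per library, WT in blue and KO in red, and a bar at the mean of 2 libraries. The WT MII points of Gm36159 lie at 3781 and 2689 against 34210 and 14902 in KO, while those of Gm5844 lie at 102823 and 68685 beside 69430 and 66458 at WT GV.

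Several members belong to sequence families, which were put together from the sequence search and RefSeq names. The Pramel and Oog family holds leucine-rich repeat proteins that are made in oocytes and testis, and 9 members belonged to it, with 8.2% of all member counts. All 9 were called lower at MII in WT, from -3.30 to -1.45 with a median of -1.95, where 31.4% of all tested genes were called lower. Under TMM 6 of 9 were called lower, beside 17.6%. In KO 0 of 9 were called by edgeR with ERCC scaling, beside 1.17% of all tested genes, with a median of -1.75, and 2 were called lower under TMM beside 3.44%. Gm13103, which RefSeq names Pramel27, had 102481 and 91127 scaled counts at WT GV and 25056 and 16574 at MII, a difference of -2.22 (SE 0.44, adjusted p = 6.07e-06). Gm10436 and Gm2042 were 98.82% and 99.55% identical to Oog1, and Gm6367 and Gm6205 were 99.59% and 99.6% identical to Gm3259. All 9 had another member as a near copy. Reads may be split between such genes, so the 9 are not independent observations.

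Copies of ribosomal protein genes were among the members that fell the most. Of 9 such members 7 were called lower in WT, with a median of -4.0, where 31.4% of all tested genes were called lower. Under TMM 7 were again called lower, beside 17.6%, with a median of -3.26. At MII the KO against WT difference was positive for 8 of 9 with a median of 1.2 (0.72 under TMM, where 7 of 9 were positive), and only Gm15500 was called. It was positive for 150 of the 200 members (median 0.56) and for 11063 of the 17426 tested genes (median 0.30). Gm13370, Gm10163 and Gm15682 are all copies of Rpl21 with 2 other members as near copies each, so reads may be split between them. Among the 2 not called lower in WT was Gm10076, a copy of Rpl41 that GENCODE lists as a lincRNA. It had 10922 and 6600 scaled counts in the WT GV libraries, then 1299 and 1049 after GVBD and 9586 and 7857 by MII. For KO the values were 5012 and 5240 in the GV, 3320 and 3989 in the GVBD and 3240 and 1110 in the MII libraries. WT was above KO at GV and MII and below it at GVBD, and no difference passed the edgeR test, while DESeq2 called the GVBD difference (1.64, adjusted p = 0.00552).

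With ERCC scaling no copy of a mitochondrial gene passed the edgeR test in any comparison. All 5 lay in 1 cluster at chr1:24611535-24616197, and the WT median from GV to MII was -0.19 with ERCC scaling and 0.63 with TMM. With median-of-ratios scaling Gm28661 (1.04, adjusted p = 0.00955) and Gm10925 (1.06, adjusted p = 0.017) were called higher in WT. The KO median turned from -0.49 to 0.9 under TMM. Gm28661 had 24978 and 30495 scaled counts in the WT GV libraries and 35147 and 22606 by MII, beside 33171 and 21183 in the KO GV libraries and 16952 and 27376 by MII. These groups overlapped. Its counts were 75.84% to 103.44% of those of mt-Co2 in the 12 libraries, and those of Gm28439 were 29.94% to 35.27% of mt-Nd4.

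Ubiquitin and heat shock copies divided. Gm1821 and Gm8797, the Ubb copies, were called lower in WT at -3.55 and -6.64, while the Hsp90aa1 copies Gm5844 and Gm12346 were not. Each of these 4 had another member as a near copy, and Gm1821 was the closest match of Gm8797 (98.72% identity). Reads may be split between such genes, so the 4 are not independent observations. Members whose best coding match was Ccdc82 or Olfr624, 6 in all, had WT differences from -0.78 to 0.83, with none called by edgeR with ERCC scaling. Their median turned from -0.06 to 0.65 under TMM, where Gm36958 was called higher (1.80, adjusted p = 0.0341). Each of the 6 matched 22 to 33 genes, and the closest match was another Gm-numbered gene, so they are not copies of these coding genes alone. Of 5 zinc finger gene copies 3 were called lower in WT, beside 54.5% of all members and 31.4% of all tested genes.

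Pseudogenes were set beside their coding near copies. For 37 pseudogene members with a coding copy, the WT difference from GV to MII had the same sign in 33 pairs and was within 1 log2 unit in 32. Both genes were called lower in 16 pairs, neither in 19, only the member in 1 (Gm16026, with Sp110), and in 1 the copy alone was called and higher (mt-Atp6, with Gm10925). Identity was at least 99% in 19 pairs and 100% in 8. The member's counts were at the median 30.85% of those of the copy, under 10% in 9 pairs and above the copy's in 10. The part of shared reads in the likeness of these pairs was not tested.

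Of the sequences printed above, Gm11221 had 6.49% to 14.39% of the counts of Fcf1, and the WT differences were -5.86 and -6.38. Gm5776 had 46.22% to 59.87% of the counts of Mrps33, with WT differences of -2.98 and -3.0. The pairs that differed by over 1 log2 unit were Gm10925 with mt-Atp6 (0.06 and 2.64), Gm15681 with Ppp4r1, Gm16026 with Sp110, Gm5434 with Ube2f and Gm15682 with Rpl21. The value of mt-Atp6 rested on 1 library, with 33208 raw counts in WT MII 1 and 3849 in WT MII 2, beside 1605 and 1866 in the WT GV libraries. Members without a near copy stood lower than members with one. In WT 73 of the 123 without a copy were called lower, with a median of -1.82, and 36 of the 77 with a copy, with a median of -0.86.

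**Figure D4:**
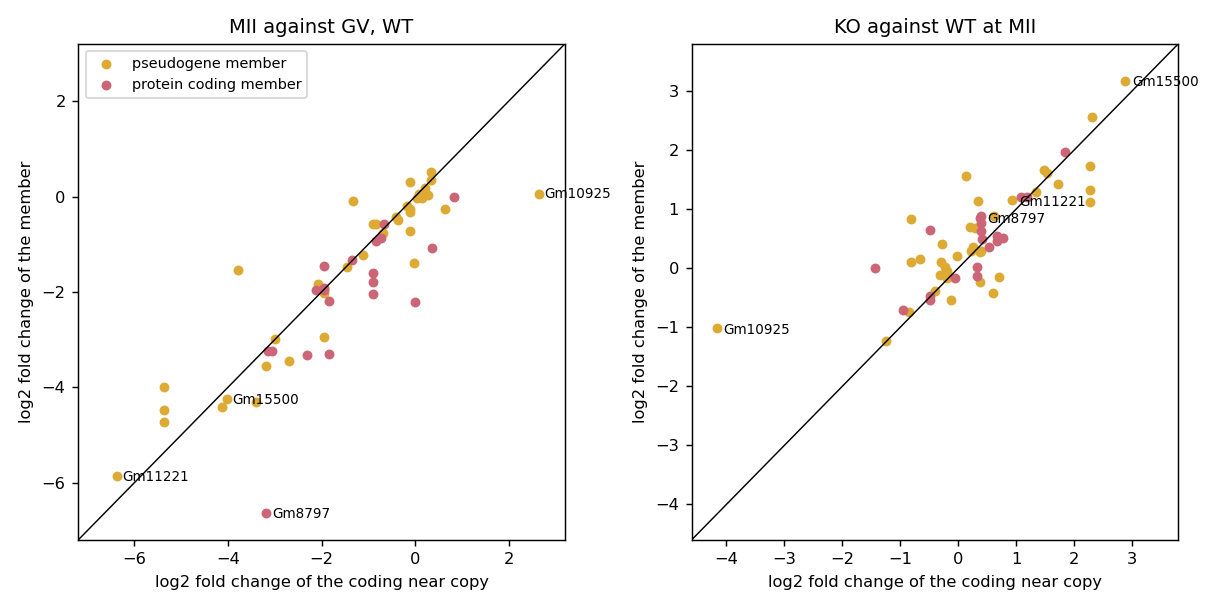
Log2 fold change of pseudogene and protein-coding members (vertical axis) against that of their coding near copies (horizontal axis), for MII against GV in WT and for KO against WT at MII, with the line of equal values. Gm15500 lies near the line in both, Gm8797 and Gm10925 lie off it in WT, and the pair of Gm14322 and Zfp966 is left out because its copy lies outside the axes.

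The last 100 bases of each gene's longest annotated transcript were searched for the cytoplasmic polyadenylation element (CPE), written as TTTTAT or TTTTAAT, and for the polyadenylation signal, written as AATAAA or ATTAAA, on the transcribed strand only. The motifs may overlap by some bases. CPEs are bound by CPEB1 and time the lengthening of poly(A) tails in maturing oocytes. TMM calls were used, because with ERCC scaling 0 members were called higher. A CPE was present in 6 of the 16 members called higher in WT (37.5%), in 13 of the 88 called lower (14.8%) and in 16 of the 96 not called (16.7%). Among all tested genes the shares were 29.5% of 1303, 9.4% of 3173 and 15.7% of the others. The signal was present in 93 of the 200 members (46.5%), compared with 66.1% of all tested genes. The annotated transcripts of some pseudogenes, such as Gm5844 and Gm12346, end at the stop codon of the copied coding part. Bases beyond it could not be searched, and the part of such annotated ends in these shares was not tested.

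The ends of 4 of the 6 members that hold both motifs and were called higher at MII by TMM are shown, with motifs in capitals. The 4 were chosen after their values were seen, and Gm5946 and Gm19757, which also hold both motifs, are not shown. Gm1070 (chr6:71302821-71302880, plus strand) had a TMM difference of 1.22 (adjusted p = 0.00559), Gm11381 (chr13:32379907-32379966, minus strand) of 1.26 (adjusted p = 0.00428), Gm29811 (chr3:132842202-132842261, minus strand) of 1.46 (adjusted p = 0.0078) and Gm15629 (chr14:75197073-75197132, minus strand) of 1.13 (adjusted p = 0.00555). With ERCC scaling their WT differences were 0.39, 0.40, 0.62 and 0.26 and none passed the test.
Gm1070: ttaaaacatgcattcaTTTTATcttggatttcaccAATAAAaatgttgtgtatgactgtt
Gm11381: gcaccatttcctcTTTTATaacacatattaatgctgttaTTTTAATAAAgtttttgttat
Gm29811: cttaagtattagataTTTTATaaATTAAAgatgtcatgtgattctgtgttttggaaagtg
Gm15629: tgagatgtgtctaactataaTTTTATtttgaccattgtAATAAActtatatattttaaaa

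The replicate spread of a member was taken as the median over 6 groups of the absolute log2 ratio of its 2 libraries, on ERCC-scaled counts with 1 count added. Its median over the members was 0.441, beside 0.447 for the other genes of at least that abundance, and it ranged from 0.077 to 1.039. With TMM scaling the median was 0.236. The widest spreads were those of Gm36958 (1.039), the mitochondrial copy Gm28439 (0.953) and the Rpl21 copy Gm10163 (0.908). The narrowest were those of Gm11985 (0.077), which RefSeq names Ccdc201, and the lincRNAs Gm11426 (0.085) and Gm7437 (0.127).

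The KO MII libraries differed the most from each other. On the CPM scale the median absolute log2 ratio between replicates was 0.614 in KO MII, with 53 members over 2-fold apart, and 0.509 for the other genes. It was 0.112 in KO GV, with 2 members over 2-fold apart, 0.140 in WT MII with 3, 0.174 in WT GV with 5, 0.297 in WT GVBD with 10 and 0.314 in KO GVBD with 21.

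**Figure D5:**
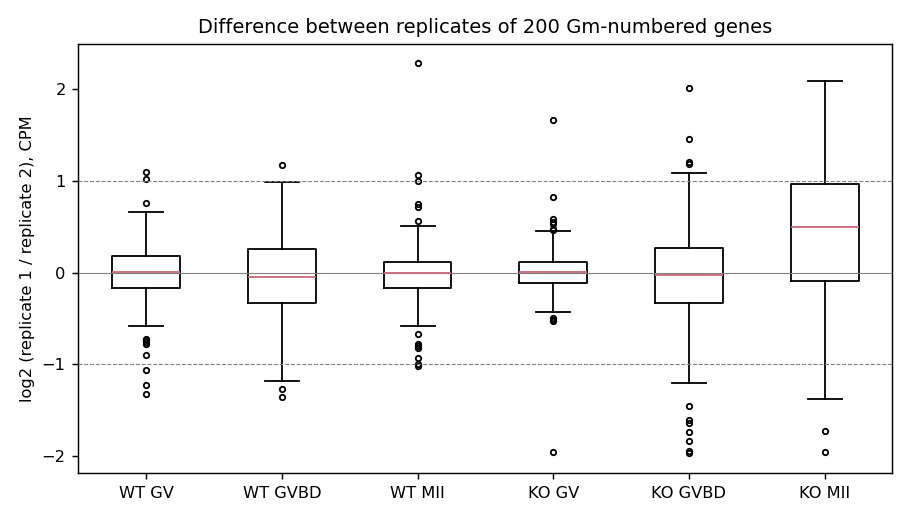
Log2 ratio of CPM between replicates 1 and 2 for the 200 members in each of 6 groups, with boxes from the lower to the upper quartile, a line at the median, whiskers to 1.5 times the box length and single points beyond. Dashed lines mark 2-fold differences, which 53 members passed in KO MII and 2 in KO GV.

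Some members drew much of their level from 1 library. Beside Gm8797, these included Gm36958 with 26.92% of its CPM sum and Gm10076 with 23.68%, both in WT MII 2. At the edge of the list, Gm6201 with a mean of 2086.0 counts, Gm39465 with 2073.5 and Gm5514 with 2055.3 were the last included. Gm973 with 2039.7, Gm15767 with 2033.3 and Gm13752 with 2025.8 fell just outside. Ranking by the median count kept 191 of the 200.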

How the data were processed

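The authors deposited raw counts per gene of 12 libraries. Their methods describe trimming, alignment to GRCm38 and use of uniquely mapped reads, and the submitters' processing notes list cutadapt 1.9, HISAT2 2.0.4 and StringTie 1.3.4d. The counting step, its strand setting, its handling of reads that match several genes and the annotation release are not given in the sources used here. Gm28661, identical to mt-Co2 over all of its 681 bases, still held counts. The deposited counts may therefore not be limited to uniquely mapped reads. The methods describe SMART-seq of pools of 10 or 20 oocytes, whereas the labels describe a strand-marking kit for bulk RNA.

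The members and lists were chosen with earlier results of these data known. Symbols were matched by Ensembl identifier. Library sizes were set by the sums over 92 ERCC sequences (scaled count: count divided by the library's ERCC factor). Genes passing filterByExpr were tested in edgeR 4.0.16 (R 4.3.3) by the quasi-likelihood test, with p-values adjusted over all tested genes. All 200 members passed this filter in every comparison. Alternatives were TMM, median-of-ratios scaling, no filter, DESeq2 1.42.0, a replicate block, leaving out each library, and ranking by the median. On simulated counts for KO against WT at MII (16932 genes) the test recovered 200 of 200 well-counted genes changed by 3 on the log2 scale, with 10 false calls. For MII against GV in WT (18195 genes) it recovered 199 of 200 with 7 false calls. The simulated counts had a fixed dispersion and followed the ERCC sums exactly, so they do not give the power or error rate on these data. After ERCC scaling the real KO MII replicates differed by a median log2 ratio of 1.184. Near copies came from BLAST+ 2.17.0 on GENCODE transcripts, and sequences from those transcripts.

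Named were the 10 members with the highest mean count, the 5 with the highest RPKM-like level, up to 4 with the highest and 4 with the lowest fold change among called members without overlap in each comparison, the 3 widest and 3 narrowest in spread, the 4 most concentrated in 1 library, the 3 on either side of rank 200, and Alkbh5. Members named in the near-copy, family and motif paragraphs beyond these were chosen after their values were seen. A member that this rule names is not reported here.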

Additional observations from a re-analysis of the deposited data

Results flagged for a closer look

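Gm36159 had KO against WT differences of opposite direction at GV and MII, with every library on its side. The log2 difference was -0.19 at GV, where both KO libraries lay below both WT libraries, and 2.92 at MII, where both lay above. The test of the difference itself, the interaction term in edgeR, gave 3.11 (SE 0.65) with an adjusted p of 0.38, and with TMM scaling 3.09 with an adjusted p of 0.0274.

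Gm10076, the Rpl41 copy, changed direction at each stage in every library. Its KO against WT difference was -0.77 (GV), then 1.64 (GVBD) and then -2.0 (MII). None passed the edgeR test, and DESeq2 called the GVBD difference (adjusted p = 0.00552). The interaction term for GV and MII gave -1.23 with an adjusted p of 1.0, and the differences of GVBD from the other stages were not tested. WT MII 2 held 23.68% of its CPM sum.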

How the results depend on the processing

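Of the counts of members called, those for MII against GV in WT stayed within 1.5 times of 109 under every setting but 2 of the single-library omissions (60 to 126). With DESeq2 the counts were 8 for KO against WT at GV, 7 at GVBD, 11 at MII and 15 over all stages. The DESeq2 count was 4 for the interaction, and the shares of all tested genes for these comparisons are given above. For MII against GV in KO DESeq2 called 73 members, beside 3130 of 18986 tested genes. With no filter on low counts the members called were 9 at GV, 17 over all stages, 67 for KO and 6 for the interaction. All tested genes then gave 666 of 29351, 1181 of 33089, 2659 of 28535 and 346 of 31156, in that order. TMM and median-of-ratios scaling each gave 29 for KO and 5 for the interaction, and median-of-ratios scaling gave 2 over all stages. All tested genes gave 854 and 846 of 18986 for KO and 69 and 105 of 21009 for the interaction. Over all stages median-of-ratios scaling gave 606 of 22046. In WT the split was 0 higher and 109 lower with ERCC scaling, 16 and 88 with TMM, and 25 and 85 with median-of-ratios scaling. Under the last scaling 1862 of the 18511 tested genes were called higher and 3022 lower. Leaving out single libraries gave 0 to 12 at GV, 0 to 5 at MII, 0 to 138 for KO, 0 to 16 for the interaction and 0 to 10 over all stages. The shares at MII ran from 49.7% to 51.3% of GV in WT and from 56.0% to 68.3% in KO, and the spread with TMM scaling was 0.236. The causes were not tested.

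Replicate numbers are shared by the groups, and the sources do not say whether they pair samples. Deviations of same-numbered WT and KO libraries correlated at -0.213 (GV), -0.005493 (GVBD) and -0.1293 (MII), and those of GV with MII at 0.02836 in WT and 0.01332 in KO. Such correlations cannot settle whether the samples were paired. Over all 15 pairs of groups they ran from -0.213 to 0.1648. With the replicate block the counts were 0 at GV, 0 at GVBD, 0 at MII, 110 in WT, 67 in KO, 0 for the interaction and 6 over all stages. All tested genes gave 200 of 19367 at GVBD, 4 of 17426 at MII and 5007 of 18511 in WT. In KO they gave 2572 of 18986, and over all stages 671 of 22046. With crossed numbers, a setting chosen after seeing the data, 2 members were called at GV, beside 209 of 19625 tested genes, and 0 at MII.

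None of the 12 calls followed for single members through the alternatives reversed. Among members not called, Gm28661 and Gm36958 turned in KO, from -0.29 to 1.09 and from -0.33 to 1.19 under TMM. The MII call of Gm15500 held in 5 of 10 settings, that of Gm36159 in 5 of 10, that of Gm48677 in 3 of 10, and the call of Gm48050 over all stages in 10 of 17. Each group held 2 libraries, those of KO MII differed the most from each other, and the lowest value of any member was 162 counts.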
